A study of Mus musculus with 19 samples.

Results

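Minocycline added to isoproterenol was compared with isoproterenol alone in the whole hearts of 13 mice, 13 of the 19 in the study, by sequencing of small RNA. All mice were male wild-type C57BL6/J, 12 weeks old, and carried an osmotic pump for 21 days. In the isoproterenol group (n = 6 hearts) the pump released isoproterenol, which stimulates beta-adrenoceptors and is used in rodents to make the heart enlarge and scar, at 30 mg/kg per day. In the group with both drugs (n = 7 hearts) the same pump was combined with an intraperitoneal injection of minocycline, an antibiotic of the tetracycline class that also dampens inflammation, at 50 mg/kg per day. Saline-pump hearts (n = 6) are given below as a background level only. The groups were taken from the submitters' labels, each library is 1 mouse, and hearts are named by the animal number. No vehicle injection is named for the other mice, and the effects of the drug and of being injected each day cannot be told apart. All microRNA entries of the table that compares these groups were used, 617 in all, of which 543 are mature microRNAs or their length variants, 48 predicted microRNAs and 26 other parts of precursors.

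MicroRNAs are short RNAs cut from hairpin precursors. They guide the silencing machinery to messenger RNAs, mainly by pairing of the seed, bases 2 to 8 of the mature strand. Many are transcribed together from genomic clusters, and 1 hairpin can yield a strand from each arm (5p and 3p). In the heart, muscle microRNAs such as miR-1 and miR-133 make up much of the pool, miR-21 and miR-199 are known from stressed and fibrotic hearts, miR-29 and miR-30 members restrain matrix genes, and miR-146a is induced by NF-kB and damps that pathway.

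The isoproterenol libraries held 4230053 to 6107141 reads of listed entries, and those of the other group 3166774 in heart 957 to 6548879 in heart 955. Counts were scaled between libraries, so levels below are scaled reads. Of the 617 entries, 363 had at least 10 scaled reads in at least 6 libraries and were tested, and these held 99.988% of reads. The muscle microRNA miR-1a-3p took 28.3% to 43.3% of the reads of isoproterenol hearts and 34.9% to 42.1% of those with both drugs. Heart 951 was the lowest, and its scaling factor of 1.29 was the highest of the 13. Of markers of other tissues, the skeletal muscle microRNA miR-206-3p stood at 4.01 to 9.49 scaled reads with isoproterenol and at 3.17 to 8.41 in hearts given both, the 7 epithelial markers summed to 381 to 480 and 381 to 485, and the neuronal markers to 1823 to 2127 and 1978 to 2606. Liver markers are given below. The labels name no batch.

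The mature sequences that the results turn on are given 5′ to 3′ with the seed in capitals, from RefSeq on build GRCm38.p6. The first pair is miR-146a-5p, the 1 entry that passed the test, and miR-146b-5p, which has the same seed. The next are miR-194-5p, whose groups did not overlap, and its neighbour miR-215-5p with the like-seeded miR-192-5p. The rest stand for the groups that are described further on.
miR-146a-5p: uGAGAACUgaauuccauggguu
miR-146b-5p: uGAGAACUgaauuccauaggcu
miR-194-5p: uGUAACAGcaacuccaugugga
miR-215-5p: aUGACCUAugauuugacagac
miR-192-5p: cUGACCUAugaauugacagcc
miR-335-5p: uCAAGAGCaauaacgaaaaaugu
miR-494-3p: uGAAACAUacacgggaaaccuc
miR-541-5p: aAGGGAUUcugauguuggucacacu
miR-434-5p: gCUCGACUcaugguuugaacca
miR-34b-3p: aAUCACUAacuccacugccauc
miR-29a-3p: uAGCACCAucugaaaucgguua

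Counted from 1 at the 5′ end, miR-146a-5p differs from miR-146b-5p by G18A and U21C, both outside the seed. miR-192-5p differs from miR-215-5p by C1A, A12U and C20A, also outside the seed. miR-146a-5p lies at chr11:43374435-43374456 on the minus strand, in no other annotated gene. miR-146b-5p lies at chr19:46342790-46342811 on the plus strand, in an intron of Mfsd13a. miR-215-5p (chr1:185313610-185313630, plus strand) lies in an exon of the non-coding gene 2010103J01Rik, within an intron of Iars2 on the other strand. miR-335-5p (chr6:30741314-30741336, plus strand) lies in an intron of the imprinted gene Mest.

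With minocycline added, miR-146a-5p was lower, and it was the 1 entry of 363 called at an adjusted p below 0.05 (0.275% of those tested). In isoproterenol hearts its scaled reads were 6847, 7017, 5623, 6851, 6992 and 7304 in hearts 941, 943, 948, 951, 954 and 958. With both drugs they were 4047, 3248, 4492, 5878, 5297, 4709 and 4255 in hearts 939, 942, 946, 952, 953, 955 and 957. Heart 948 was the low one of its group and heart 952 the high one of the other, and these hearts alone made the groups overlap. Each of the 7 hearts given both drugs was below the mean of the isoproterenol hearts. Saline hearts stood at 5855 ± 333 (SD, n = 6), between the isoproterenol mean of 6772 and the mean with both drugs of 4561.

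On the log2(scaled reads + 1) scale the difference of miR-146a-5p, both drugs minus isoproterenol, was -0.59 (SE 0.11, 95% interval -0.83 to -0.34), a ratio of 0.67 with an interval of 0.56 to 0.79, at a limma adjusted p of 0.0470. An exact permutation test over the 1716 regroupings of the 13 hearts gave p = 0.00233 (two-sided, not adjusted). The call is near its threshold. Leaving out 1 heart at a time kept it in 4 of 13 fits and lost it without each of isoproterenol 941, 943, 951, 954 and 958 and of 939, 946, 955 and 957 with both drugs, with adjusted p from 0.00584 to 0.152 and differences from -0.65 to -0.51. It was also lost when libraries were scaled to total reads (-0.56, adjusted p = 0.197), without a filter on low reads (0.0515) and with entries of identical counts taken once (0.0505).

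**Figure D1:**
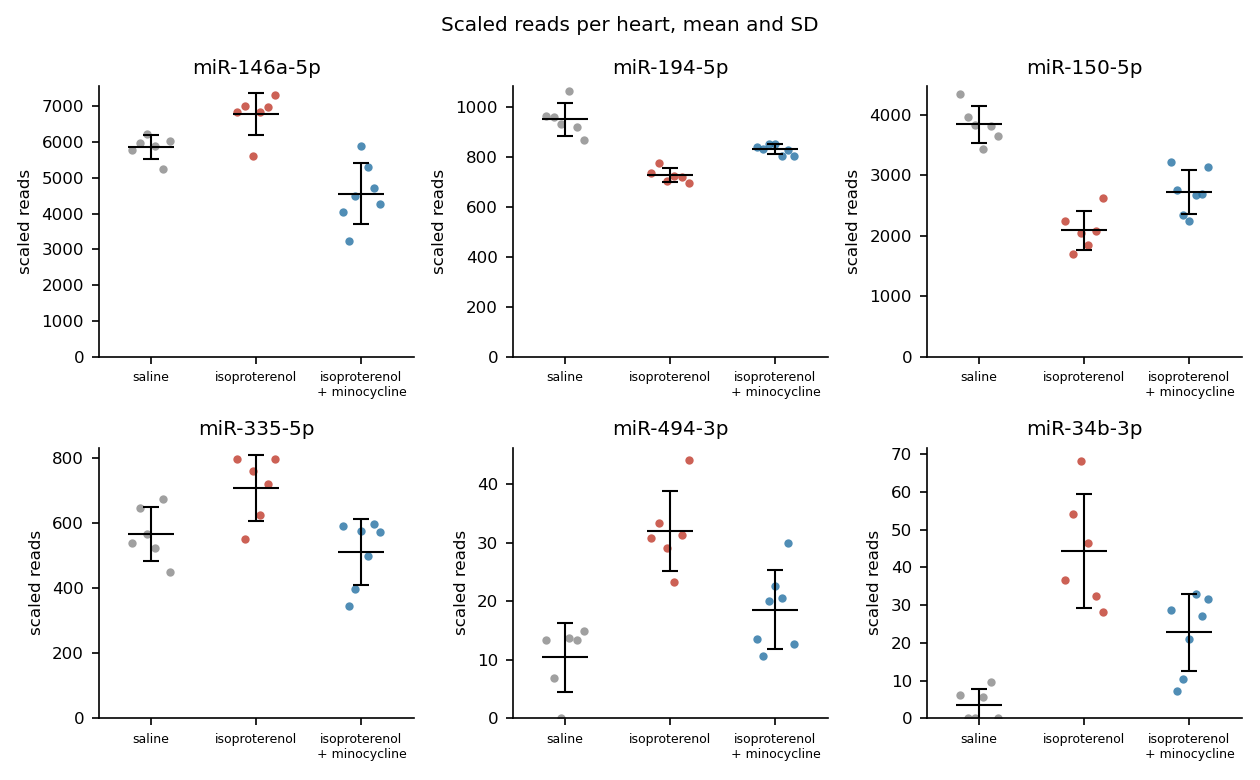
Scaled reads of 6 microRNAs in each heart (points) with the mean and SD of the group (black), for saline (n = 6), isoproterenol (n = 6) and isoproterenol plus minocycline (n = 7) hearts, each vertical axis starting at 0. For miR-146a-5p hearts 948 and 952 are the only overlap between the drug groups, and for miR-194-5p there is none.

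Other microRNAs of inflammation did not pass the test. Of 11 tested entries of a list of immune and NF-kB microRNAs, miR-146a-5p was the 1 called, 8 differences were below 0 (52.9% of all tested entries were), and the median difference was -0.03 against -0.02 over all tested entries. The intervals of 9 of the 11 excluded a 1.5-fold change in both directions and those of all 11 a 2-fold change. miR-146b-5p, with the miR-146a seed, ran from 411 over a median of 502 to 596 with isoproterenol and from 352 over 459 to 540 with both drugs. The groups overlapped throughout, and its difference of -0.15 (95% interval -0.38 to 0.09) leaves room for at most a 1.30-fold fall. miR-155-5p, a promoter of inflammatory signalling in white blood cells, ran from 814 to 1113 and from 836 to 1056, with a difference of -0.00 and an interval of -0.18 to 0.18. That interval excludes any change above 1.13-fold in either direction. The myeloid miR-223-3p was at -0.10 (95% interval -0.29 to 0.09), and miR-21a-5p, the stress microRNA of fibroblasts and macrophages, at -0.05 (-0.36 to 0.26). Outside that list, a part of the mir-142a precursor, from a microRNA gene of white blood cells, was at -0.43 (-0.85 to -0.01, limma adjusted p = 0.427). miR-342-3p was at -0.31 (-0.73 to 0.12) and miR-511-3p, from a gene of macrophages, at -0.32 (-0.70 to 0.05). These were named after their values were seen. The mature miR-142a-3p, from the same gene as that precursor part, ran from 90.2 to 202 scaled reads with isoproterenol and from 93.1 to 173 with both drugs. Leaving out 1 heart at a time, the difference of miR-142a-3p ran from -0.25 to -0.05.

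The lymphocyte microRNA miR-150-5p was second by p. Its scaled reads were 1700 at the lowest, 2063 at the median and 2622 at the highest with isoproterenol, and 2247, 2693 and 3217 with both drugs. All 7 hearts with both drugs were above the isoproterenol mean, as they were for 6.34% of tested entries, and the groups overlapped through isoproterenol heart 958. The difference was 0.39 (SE 0.11, 95% interval 0.16 to 0.62), which did not pass (limma adjusted p = 0.222). Saline hearts were higher than either drug group at 3840 ± 306 (SD, n = 6). Over the white blood cell markers, 0 of 4 tested passed and their summed level ran from 3383 to 4477 with isoproterenol and from 3735 to 5053 with both drugs. In whole hearts, fewer cells of a type and less RNA per cell cannot be told apart.

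miR-194-5p was the 1 entry of 363 (0.275%) whose groups did not overlap. Its scaled reads were 697 to 774 with isoproterenol (median 723) and 804 to 853 with both drugs (median 833). Every heart with both drugs was higher than every isoproterenol heart, with saline hearts above both at 951 ± 66.1 (SD, n = 6). The difference was small, 0.19 (SE 0.05, 95% interval 0.08 to 0.31), and excluded a rise above 1.24-fold. The limma adjusted p was 0.222. Groups that do not overlap fix the exact permutation p at 0.000583 (not adjusted over entries), the smallest that 1716 regroupings can give, so it adds nothing to the lack of overlap. Its residual SD of 0.04 on the log2 scale was small beside the median of 0.22 in its abundance class, and limma moves such a spread towards that of entries of like abundance. In the authors' deposited table it stands first by unadjusted p (1.30e-05, log2 fold change 0.20), before miR-146a-5p (2.69e-04, -0.56) and miR-26b-3p (4.57e-04, 0.34).

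miR-194 has 2 copies, beside miR-215 on chromosome 1 and beside miR-192 on chromosome 19. miR-215-5p ran from 96.7 to 166 with isoproterenol (median 143) and from 163 to 217 with both drugs (median 183), with overlap of the upper isoproterenol hearts. Its difference was 0.43 (95% interval 0.16 to 0.70, limma adjusted p = 0.222). miR-192-5p, from the other copy, ran from 1479 to 1860 and from 1296 to 1988, with a difference of 0.04 (95% interval -0.16 to 0.24). These are microRNAs of liver and gut epithelium. The liver marker miR-122-5p had a difference of -0.25 and an interval that reached 2-fold, and the summed liver markers overlapped at 2338 to 3383 with isoproterenol and at 2249 to 3185 with both drugs. The part of other tissues in the result was not tested.

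The further entries with the lowest p were higher for miR-26b-3p, the minor arm of miR-26b (0.32, 95% interval 0.12 to 0.52, median 84.8 scaled reads against 108), and for miR-92a-3p of the miR-17-92 family (0.23, 95% interval 0.07 to 0.39, median 6468 against 7619), with limma adjusted p of 0.222 and 0.236. They were lower for miR-335-5p, miR-10a-3p, miR-494-3p, miR-541-5p and the predicted microRNA PC-3p-1644_2110. miR-335-5p ran from 550 over a median of 740 to 799 with isoproterenol and from 344 over 572 to 596 with both drugs. Hearts 942 and 946 were lowest at 344 and 397, isoproterenol heart 943 lay inside the other group, and the difference was -0.49 (95% interval -0.79 to -0.19, limma adjusted p = 0.222). The other arm, miR-335-3p, was at -0.39, also with an interval below 0. miR-10a-3p, near Hoxb4, ran from 21.9 to 50.3 and from 9.83 to 26.9 (difference -0.97, 95% interval -1.58 to -0.37). For both, all 7 hearts with both drugs were below the isoproterenol mean, as they were for 7.16% of all tested entries.

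Across the 363 entries, the 95% interval lay above 0 for 12 (3.31%) and below 0 for 29 (7.99%), which is also the count at an unadjusted p below 0.05, while 5% of 363 is 18.2. The 12 include 2 miR-92a-3p entries with identical counts. An exact rank-sum test with Benjamini-Hochberg adjustment called 0 entries in either direction. With so few hearts its smallest p is too large for a single entry to pass, so this 0 says nothing about the entries. The median difference was -0.02, which the scaling holds near 0, and 90% of entries lay between -0.59 and 0.38. Only 28 entries differed by more than 1.5-fold, and 22 of those had a mean under 100 scaled reads. The 4 that differed by more than 2-fold were miR-298-5p (-1.61), miR-184-3p (-1.11), miR-34b-3p (-1.03) and the foetal-type muscle microRNA miR-208b-3p (1.19), all at means of 10.4 to 32.7 scaled reads and none called. These were singled out after their values were seen. Without isoproterenol heart 943, which was at 0, miR-208b-3p was at 0.54.

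How large a change the data exclude was read from the 95% interval of each difference. Because counts were scaled between libraries, each difference is relative to the other microRNAs of the same library. A shift shared by all microRNAs would not be seen and is not excluded at any size. A change was counted as excluded where the whole interval lay inside it in both directions. Of the 363 entries, 63 (17.4%) excluded a 1.2-fold change, 235 (64.7%) a 1.5-fold change and 310 (85.4%) a 2-fold change. Taken in 1 direction, a rise of 1.2-, 1.5- and 2-fold was excluded for 178 (49%), 301 (82.9%) and 343 entries (94.5%), and a fall of these sizes for 153 (42.1%), 270 (74.4%) and 323 (89%). Each interval covers 95% for its own entry. With intervals widened to cover all 363 entries at once, 0 excluded 1.2-fold and 90 excluded 1.5-fold. With libraries scaled to total reads, 22 excluded 1.2-fold.

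The excluded size followed abundance. The 45 entries with a mean of at least 10000 scaled reads held 94.9% of reads, and their median interval half-width was 0.19 on the log2 scale, a factor of 1.14. All 45 excluded 2-fold, 44 excluded 1.5-fold and 19 excluded 1.2-fold. Of 67 entries between 1000 and 10000 reads, 65 excluded 2-fold and 57 excluded 1.5-fold at the same median half-width of 0.19. Of 118 entries between 100 and 1000 reads, 110 excluded 2-fold and 94 excluded 1.5-fold, at a median half-width of 0.26. Of 130 entries between 10 and 100 reads, 90 excluded 2-fold, 40 excluded 1.5-fold and 0 excluded 1.2-fold, at a median half-width of 0.52. Below 10 reads, 3 of 256 entries passed the filter and were tested. Of these, 0 excluded a 2-fold change in both directions and 2 excluded a 2-fold fall, and the rest of this class has no value here.

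The residual SD between libraries of a group holds differences between hearts and those of library preparation, which cannot be told apart here. In the class of at least 10000 reads the median residual SD was 0.16 on the log2 scale against a counting SD of 0.0078, and between 10 and 100 reads it was 0.43 against 0.27. The counting SD covers counting error only, since reads that carry no molecular identifiers need not be separate molecules.

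**Figure D2:**
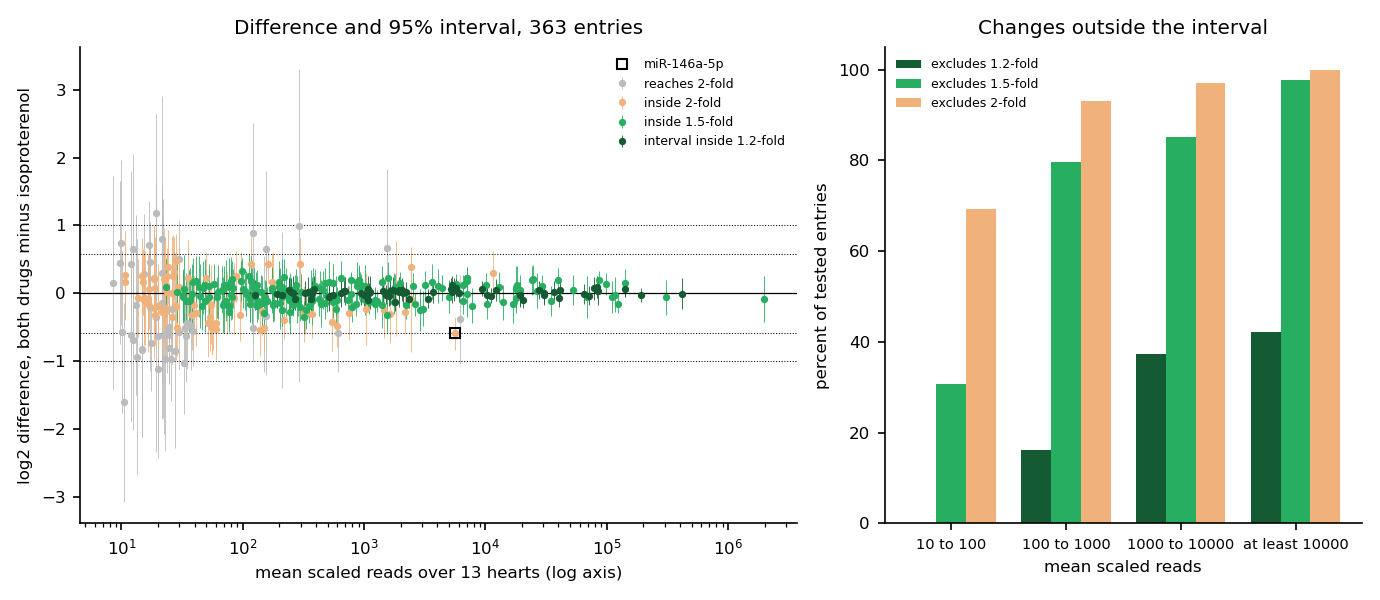
Left, the log2 difference (both drugs minus isoproterenol) of 363 entries with its 95% interval against mean scaled reads on a log axis, coloured by the size of change the interval excludes, with dotted lines at 1.5-fold and 2-fold. Right, the percentage of tested entries in each abundance class that exclude 1.2-, 1.5- and 2-fold, which reaches 100% for 2-fold in the class of at least 10000 reads and 30.8% for 1.5-fold between 10 and 100 reads.

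The narrowest interval of all tested entries was that of miR-378a-3p. This microRNA, encoded in the gene of a coactivator of mitochondrial genes, ran from 179790 to 204410 scaled reads with isoproterenol and from 180630 to 200910 with both drugs. The groups lay over each other, and the difference of -0.03 (95% interval -0.13 to 0.08) excluded a fall of more than 1.10-fold and a rise of more than 1.05-fold. Its relative miR-378d, the narrowest between 1000 and 10000 reads, was at 0.07 (95% interval -0.04 to 0.18). The endothelial miR-126a-3p ran from 119200 to 145080 and from 139460 to 153610, with heart 951 the low one, and was at 0.07 (95% interval -0.05 to 0.19). Its other arm, miR-126a-5p, was at 0.19 with an interval above 0 (0.01 to 0.37, limma adjusted p = 0.427).

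Of 112 entries with at least 1000 reads, 11 did not exclude 1.5-fold. Besides miR-146a-5p and miR-150-5p they were miR-125a-5p, miR-208a-3p, miR-342-3p, miR-214-3p, miR-10a-5p, miR-10b-5p, miR-3968, miR-451a and a part of the mir-6240 precursor. miR-125a-5p, of the miR-99b/let-7e/miR-125a cluster, was at 22291 in heart 942 and at 9996 to 11933 in the other hearts with both drugs. miR-451a, a red blood cell microRNA, ran from 1260 to 2241 with isoproterenol and from 763 in heart 942 to 4708 in heart 953 with both drugs, and its interval of -0.63 to 0.76 excluded neither a rise nor a fall of 1.5-fold. Summed red blood cell markers overlapped at 23910 to 33100 and 26050 to 38950. In a fit with the mean level of these markers as a covariate, miR-146a-5p was still called and no named microRNA changed sign. Cluster levels were not fitted with that covariate.

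Muscle microRNAs did not pass. Of 8 tested entries of the heart and striated muscle list, 0 were called, 4 were below 0, and 7 excluded 2-fold. Over all tested entries, 52.9% were below 0 and 85.4% excluded 2-fold. miR-1a-3p, which represses growth genes in muscle, ran from 1113200 to 2512700 with isoproterenol, where heart 951 was the low one, and from 1673700 to 2381700 with both drugs. Its difference was -0.08 (95% interval -0.42 to 0.26), at -0.22 without heart 951 and -0.01 without isoproterenol heart 954. miR-133a-3p was at -0.01 (-0.23 to 0.22). miR-208a-3p, encoded in the alpha-myosin gene, had a median of 2416 against 1727 and a difference of -0.28 (-0.59 to 0.04), with hearts 939 and 957 high at 2525 and 2886. miR-499-5p, encoded in an intron of Myh7b, had a median of 22781 against 26331 and a difference of 0.21 (-0.01 to 0.42, limma adjusted p = 0.446).

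Of a list of microRNAs that restrain fibrosis, all 13 were tested, 0 were called, and all 13 excluded a 1.5-fold change. So did 64.7% of all tested entries, and 97.8% of those with at least 10000 reads, the class that holds most of this list. The median difference of the 13 was 0.11, with 3 below 0 (52.9% of all tested entries were) and a range of -0.07 to 0.19. miR-29a-3p, which targets collagen messages, ran from 70497 over a median of 78692 to 87406 with isoproterenol and from 80798 over 90759 to 99963 with both drugs. All 7 hearts with both drugs were above the isoproterenol mean, the groups overlapped, and the difference was 0.19 (95% interval 0.05 to 0.33, limma adjusted p = 0.236). miR-29b-3p and miR-29c-3p, with the same seed AGCACCA, were at 0.17 and 0.11. Reads may be split between near-identical family members, which makes single values of such members uncertain. miR-30c-5p was at 0.03 (-0.18 to 0.24).

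Of 18 tested microRNAs known to be raised in hypertrophy, 0 were called, and the median difference was -0.13. Of these, 12 were below 0 (52.9% of all tested entries were) and 14 excluded 2-fold (85.4% of all did). miR-21a-5p ran from 46142 to 89013 with isoproterenol and from 52938 to 77986 with both drugs, against 30223 ± 948 in saline hearts (SD, n = 6). The drug groups lay over each other, and the interval excluded a fall of more than 1.28-fold. miR-199a-5p of activated fibroblasts was at -0.18 (95% interval -0.44 to 0.07) and miR-214-3p, from the same transcript, at -0.24 (-0.65 to 0.18). The activity-induced miR-132-3p was at 0.15 (-0.09 to 0.40) and miR-212-5p at -0.18 (-0.42 to 0.06). All 5 tested fibroblast markers were below 0, at -0.24 to -0.00, with summed levels of 24240 to 35220 against 23570 to 31060.

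Genomic clusters were then described by the mean log2 level of their tested entries in each heart. Clusters with at least 3 tested entries numbered 32 and held 160 of the 363. A few, such as miR-10/miR-196, miR-1a/miR-133a and miR-181a/miR-181b, join copies on different chromosomes that yield the same or near-identical mature strands. Others hold a mature strand that also has a copy elsewhere, such as miR-92a-3p of miR-17-92a-1, which lies on chromosomes 14 and X. The levels of such clusters can include reads from the other copy. The interval of the level excluded 2-fold in 30 of 32, 1.5-fold in 26 and 1.2-fold in 10. The 10 were miR-23a/miR-27a/miR-24-2, miR-532/miR-188/miR-362, miR-99a/let-7c-1, miR-181a/miR-181b, miR-132/miR-212, miR-99b/let-7e/miR-125a, miR-30c-1/miR-30e, miR-143/miR-145a, miR-322/miR-503/miR-351 and let-7a-1/let-7f-1/let-7d. The narrowest was miR-181a/miR-181b, at -0.01 (95% interval -0.12 to 0.09). These bounds hold for the mean of a cluster's entries and not for each entry. Among the 10 clusters, the entries that excluded 1.2-fold on their own ran from 1 of 9 in miR-322/miR-503/miR-351 to 3 of 5 in miR-23a/miR-27a/miR-24-2.

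miR-132/miR-212, whose microRNAs drive hypertrophic growth in mice, illustrates how close such a bound is. Its level ran from 7.51 to 7.75 with isoproterenol and from 7.47 to 7.79 with both drugs, against 6.79 ± 0.14 in saline hearts (SD, n = 6). The difference was -0.01 (95% interval -0.14 to 0.13), which excludes a change of the mean level of more than 1.10-fold in either direction. Its 4 entries went both ways, 2 below 0 and 2 above, and 1 of the 4 excluded 1.2-fold. miR-132-3p was at 0.15 (-0.09 to 0.40) and miR-212-5p at -0.18 (-0.42 to 0.06).

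**Figure D3:**
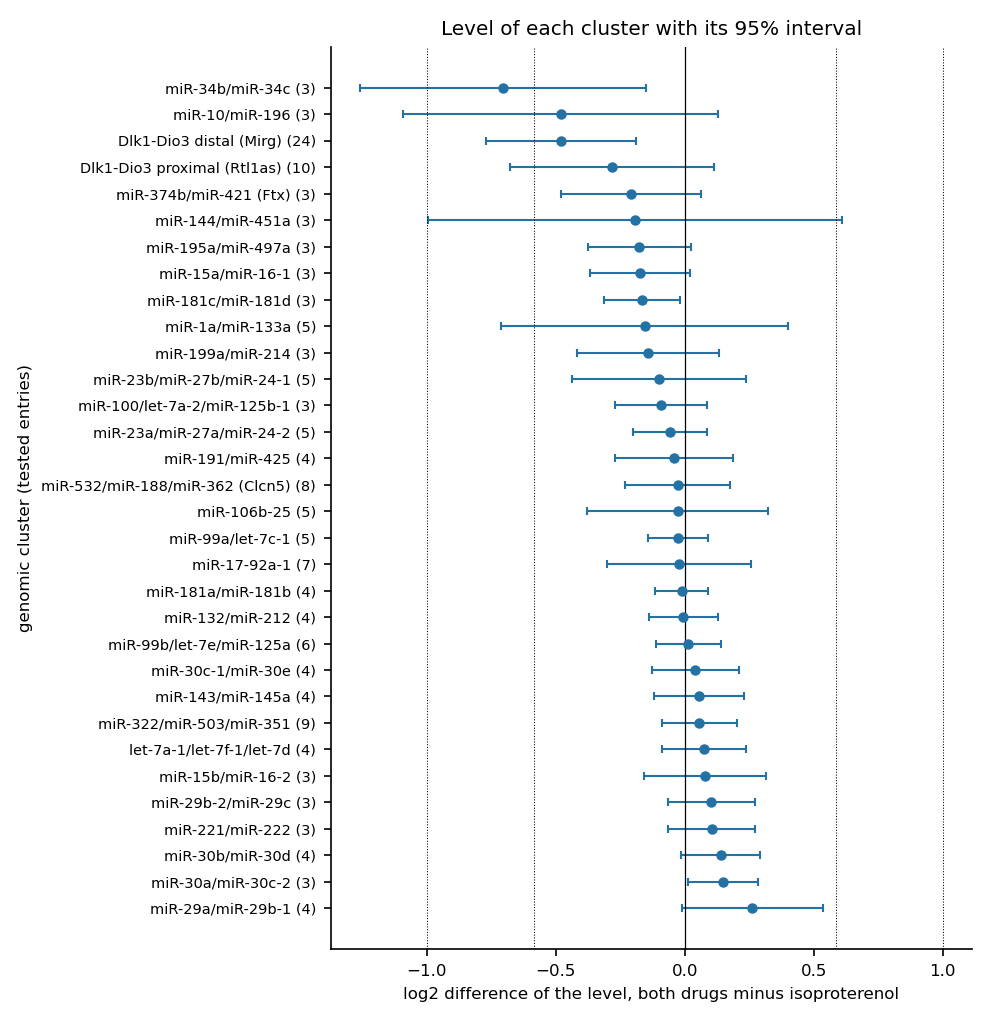
Difference of the cluster level (both drugs minus isoproterenol, log2) with its 95% interval for 32 genomic clusters, the number of tested entries in brackets, and dotted lines at 1.5-fold and 2-fold. The Dlk1-Dio3 distal and miR-34b/miR-34c intervals lie below 0, those of miR-10/miR-196 and miR-34b/miR-34c pass the 2-fold line on the lower side, and most others lie inside 1.5-fold.

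The level interval did not include 0 in 4 clusters, of 32 described with no adjustment. It was lower for Dlk1-Dio3 distal (-0.48, 95% interval -0.77 to -0.19), miR-34b/miR-34c (-0.70, -1.26 to -0.15) and miR-181c/miR-181d (-0.17, -0.31 to -0.02). It was higher for miR-30a/miR-30c-2 (0.15, 0.01 to 0.28). The last of the lower ones and the higher one are no wider than 1.24-fold at their far bound, and both intervals included 0 in some leave-out fits: the first without isoproterenol 943, 948, 951 and 954 and without 942 and 957 of the other group (-0.19 to -0.12 over all 13 fits), the second without isoproterenol 941, 948 and 951 and without 942 (0.12 to 0.18). With totals as the scale the miR-181c/miR-181d interval reached 0.09.

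The Dlk1-Dio3 domain on chromosome 12 is an imprinted region whose maternal copy gives rise to one of the longest arrays of microRNAs in mammals. They are abundant in embryos and placenta and low in most adult tissues. The distal part, near the non-coding gene Mirg, spans 38.9 kb from miR-379 on, and the proximal part, antisense to Rtl1 and around it, spans 46.3 kb. Of the 38 distal entries in the table, 24 were tested, and all 24 had a difference below 0, where 52.9% of all tested entries did. The interval lay below 0 for 8 of the 24, where 7.99% of all tested entries did, and 0 were called. Their median difference was -0.49, with a range of -0.97 to -0.17. Members share the same hearts and may share a transcript, so they are not replicates of one another.

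The distal level in isoproterenol hearts 941, 943, 948, 951, 954 and 958 was 5.90, 5.89, 6.10, 5.56, 5.58 and 5.52 on the mean log2 scale. In hearts 939, 942, 946, 952, 953, 955 and 957 with both drugs it was 5.24, 4.95, 5.32, 5.37, 5.43, 5.72 and 4.95. Heart 955 alone overlapped the isoproterenol hearts. Saline hearts were below both at 4.59 ± 0.36 (SD, n = 6). The interval excluded any rise and a fall of more than 1.70-fold. Leaving out 1 heart at a time gave -0.55 to -0.41 with the interval below 0 in each fit, and scaling to totals gave -0.45.

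Single distal members were rare to moderate in abundance. miR-541-5p, in an intron of Mirg, ran from 300 over a median of 367 to 428 with isoproterenol and from 227 over 279 to 327 with both drugs. All 7 hearts with both drugs were below the isoproterenol mean, with overlap, and the difference was -0.34 (95% interval -0.57 to -0.12, limma adjusted p = 0.222). miR-494-3p ran from 23.2 to 44.1 and from 10.7 to 30.0, and was at -0.80 (-1.33 to -0.28). miR-409-5p and miR-410-3p were both at -0.51, with intervals of -0.90 to -0.12 and -0.92 to -0.10. The widest, miR-543-3p at -0.97, rested on heart 957, which was at 0 where the other hearts with both drugs had 15.1 to 26.7, and was at -0.32 without it. Of the 24, 14 excluded a 2-fold change and 4 a 1.5-fold change.

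The count of 24 below 0 was the same with totals or median ratios as the scale. Leaving out 1 heart at a time, every distal entry tested was below 0 except 1 of 25 without isoproterenol 951 and 1 of 25 without 957 of the other group. The count of intervals below 0 was less stable: it was 3 with totals, and 5, 4, 5, 5 and 14 without isoproterenol 941 and 948 and without 942, 946 and 955 of the hearts with both drugs.

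In the proximal part 9 of 10 tested entries were below 0, and 5 intervals lay below 0 (52.9% and 7.99% over all tested entries). miR-127-3p, which is antisense to Rtl1 and lowers its message, ran from 1275 over 1663 to 2146 with isoproterenol and from 1170 over 1411 to 1595 with both drugs (difference -0.32, 95% interval -0.57 to -0.07). miR-434-5p was at -0.51 (-0.86 to -0.16). miR-136-5p, at 0.44, was the exception and had an interval of -0.92 to 1.80. The level of the part was at -0.28 with an interval of -0.68 to 0.11. Isoproterenol hearts ran from 5.81 in heart 951 to 6.91 in heart 948. It was -0.17 without heart 948 and -0.37 without heart 951. Saline hearts were at 5.25 ± 0.12 (SD, n = 6). The 5 intervals below 0 became 3 with totals, and 3, 2, 2 and 2 without isoproterenol 941, 943, 948 and 954. They became 3, 2, 3 and 3 without 939, 942, 946 and 957 of the hearts with both drugs.

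**Figure D4:**
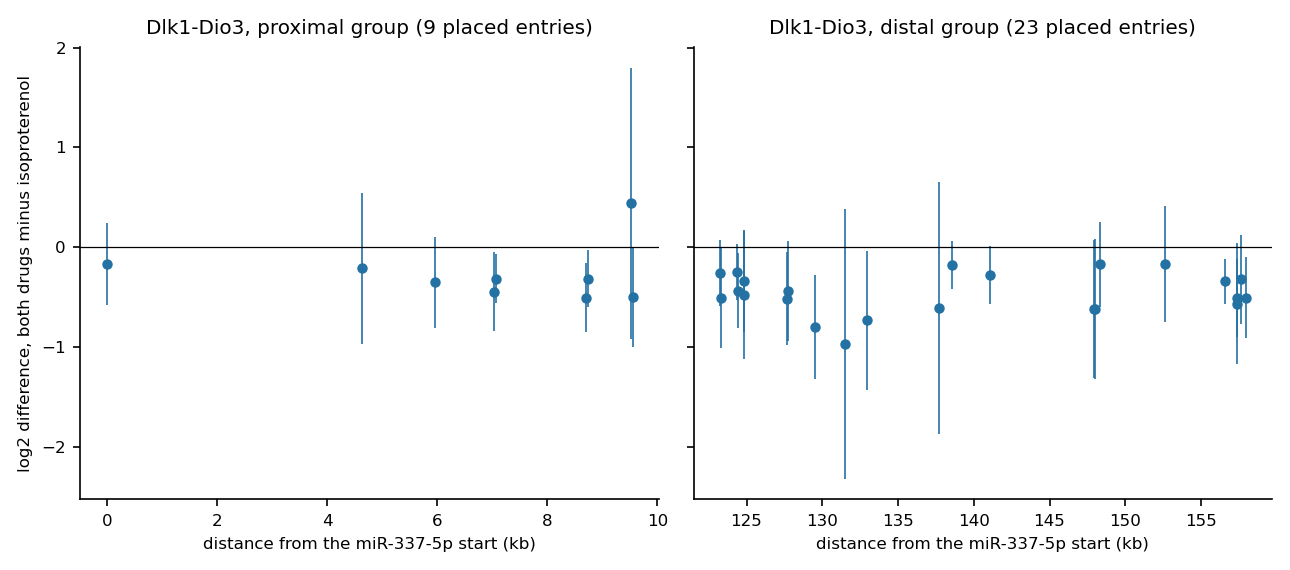
Difference (both drugs minus isoproterenol, log2) with its 95% interval of the tested Dlk1-Dio3 entries that have 1 RefSeq position, against distance from the start of miR-337-5p. All points but miR-136-5p, in the proximal part, lie below 0, from one end of the array to the other.

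**Figure D5:**
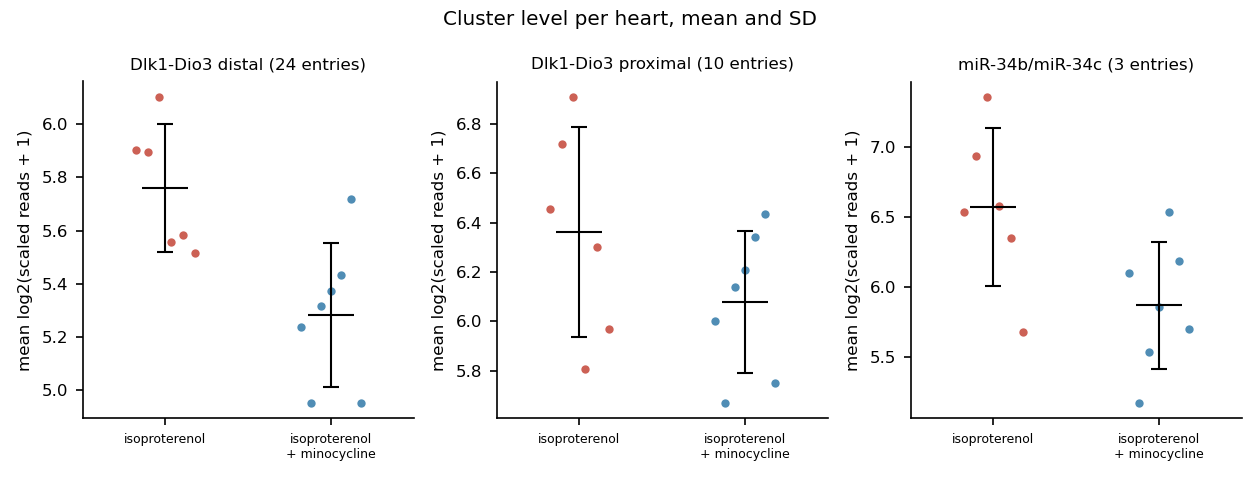
Mean log2(scaled reads + 1) of 3 clusters in each heart (points) with the mean and SD of the group, on axes that do not start at 0. In the distal Dlk1-Dio3 part heart 955, at 5.72, is the only one with both drugs inside the isoproterenol range, while the other 2 clusters overlap more widely.

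miR-34b and miR-34c, which p53 induces and which limit cell survival and repair in the stressed heart, come from 1 transcript on chromosome 9. All 3 tested entries were below 0. miR-34b-3p ran from 28.0 over a median of 41.6 to 68.3 with isoproterenol and from 7.15 over 27.1 to 33.0 with both drugs. Hearts 942 and 946 were low, the groups overlapped, and the difference was -1.03 (95% interval -1.78 to -0.29, limma adjusted p = 0.236). miR-34c-5p ran from 331 over 694 to 1178 and from 303 over 479 to 791, a difference of -0.59 (-1.16 to -0.02, limma adjusted p = 0.427). miR-34b-5p was at -0.49 (-1.13 to 0.15). Saline hearts held 3.59 ± 4.17 scaled reads of miR-34b-3p and 160 ± 31.4 of miR-34c-5p (SD, n = 6). The level of the cluster ran from -0.88 without isoproterenol heart 958 to -0.55 without heart 948, and its interval allowed a fall of 2.39-fold, so a 2-fold fall was not excluded.

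The clusters of the miR-17-92 family were near 0. miR-17-92a-1, which drives cell division and vessel growth, had a level of -0.02 (95% interval -0.30 to 0.26), with 5 of 7 entries above 0. Heart 957 was its low one, at 7.75 where the other hearts with both drugs were at 8.38 to 8.69, and miR-18a-5p was at 0 there. Without heart 957 the level was at 0.10. miR-106b-25 was at -0.03 (-0.38 to 0.32), and at 0.14 without heart 957. The miR-29a/miR-29b-1 cluster had the highest level difference, 0.26 (-0.01 to 0.53), with 4 of 4 entries above 0, and was at 0.19 without heart 951. miR-144/miR-451a of red blood cells was at -0.19 with the wide interval of -0.99 to 0.61. It was at -0.36 without heart 953 and at 0.02 without heart 957.

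Grouped by seed, the pair with GAGAACU, miR-146a-5p and miR-146b-5p, had the differences given above, and 1 of 2 excluded 1.5-fold. The 5 entries with AUUGCAC, of the miR-25 and miR-92 family, ranged from -0.14 to 0.23 and 3 excluded 1.5-fold. Of these 3, 2 are miR-92a-3p entries with identical counts. The 3 with CCCUGAG, miR-125a-5p, miR-125b-5p and miR-351-5p, ranged from -0.09 to 0.30 and 2 did. The 9 let-7 members with the seed GAGGUAG ranged from -0.13 to 0.06, and all 9 excluded 1.5-fold. The 6 miR-15/miR-16 members with AGCAGCA ranged from -0.25 to 0.09, and the 4 miR-17 members with AAAGUGC from -0.02 to 0.23, and all of these excluded 1.5-fold. The 4 miR-181 members with ACAUUCA ranged from -0.13 to 0.00. Of the miR-10 pair with ACCCUGU, at -0.38 and -0.09, 0 of 2 excluded 1.5-fold.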

How the data were processed

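Per the labels' protocols, small RNA was extracted from whole hearts with the Qiagen miRNEasy Mini kit, and ACGT101-miR (LC Sciences) removed adapter dimers, junk, common RNA families and repeats. The mapper, the genome build and the miRBase release are each not given in the sources used. The deposited values, per the file headers, are raw counts of reads for each entry, the p-value of the authors' t test and their log2 fold change. The raw counts are written with commas between digits and were tested on the log2 scale with no count model. The authors' p-value and log2 were used in 1 sentence. A further 23 per-sample columns of normalized values were not used.

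Scaling of the 13 libraries used trimmed means of log ratios (trims 0.3 and 0.05). Entries with 10 scaled reads in at least 6 libraries entered limma 3.58.1 under R 4.3.3, fitted to log2 of the scaled count plus 1. The variance prior followed abundance, p-values were adjusted after Benjamini-Hochberg over all entries tested, and the threshold was 0.05. The pseudocount pulls differences of rare entries towards 0. Saline libraries, from the other deposited table, were scaled to the same reference library and not tested. Cluster levels were fitted with limma together. Values of 0 occurred in 27 of 4719 tested cells (0.572%). Of 8021 deposited counts, 2285 are 0 and 114 lie between 1 and 4, and a listed 0 may hide a low number of reads. A set of 76 entries shares all counts with another entry.

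Alternatives were 2 other scalings, pseudocounts of 0.5 and 5, no filter or a filter of 100 reads, voom weights, robust empirical Bayes, a red blood cell covariate, identical entries taken once, a rank-sum test, wider intervals and leaving out each heart. The procedure was tested on simulated data. Positions and sequences are from RefSeq, where 469 entries matched by name, and host genes from GENCODE M21, both on GRCm38.p6.

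The microRNAs named were each called entry, the 6 with the lowest p in each direction, 24 fixed microRNAs of heart and blood, the narrowest and widest interval per abundance class, and the largest difference per cluster. Others named stand in a list, a cluster or a count. The members, lists and clusters were chosen with earlier results of these data known. Of the fixed marker lists, the 4 smooth muscle, 2 tested endothelial and 2 tested neuronal markers held 0 called entries.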

Additional observations from a re-analysis of the deposited data

Results flagged for a closer look

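In 200 groups of 6 or 7 hearts (the named microRNAs and the cluster levels) 19 had 1 heart far from the others. A rate of 1 in 20 would give about 10, but the groups share hearts and members. Some microRNAs were also named for a wide interval or a large difference, so the 19 cannot be set against that rate. The causes of the 19 were not tested.

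Among isoproterenol hearts, heart 948 was apart for miR-146a-5p at 5623 scaled reads (others 6847 to 7304), miR-92a-3p at 6132 (6436 to 6555) and miR-486b-5p at 16971 (22772 to 25101). Heart 951, the one with the lowest miR-1a-3p share, was apart for miR-1a-3p at 1113200 (others 1961200 to 2512700), miR-208a-3p at 1747 (2328 to 2721), and miR-149-3p and miR-210-5p, each at 0. Heart 954 was apart for miR-26b-3p at 96.8 (others 82.4 to 85.4).

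Among hearts with both drugs, heart 957 was at 0 for miR-543-3p (others 15.1 to 26.7), miR-23b-5p (8.24 to 43.8), miR-93-3p (13.2 to 17.9) and miR-18a-5p (21.0 to 38.8). It held 8 of the 27 zeros of tested entries, in a table where values of 1 to 4 reads are rare. Its library was also the smallest of the 13, at 3166774 reads, and the part of depth in these zeros was not tested. The same heart was low in the levels of miR-106b-25 at 7.90 (others 8.92 to 9.01), miR-17-92a-1 at 7.75 (8.38 to 8.69) and miR-23b/miR-27b/miR-24-1 at 9.40 (others up to 10.4), whose members include 3 of these microRNAs. Heart 953, whose library was the next smallest at 3483677 reads and held 5 zeros, was at 0 for miR-1a-2-5p (others 10.3 to 45.6). Heart 942 was apart for miR-125a-5p at 22291 (others 9996 to 11933) and for the miR-199a/miR-214 level at 9.52 (9.91 to 10.2), and heart 946 for miR-450b-5p at 126 (80.4 to 96.1).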

How the results depend on the processing

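The 1 call lower became 0 with total-read scaling, no filter or identical entries once, and 0 to 1 leaving out 1 heart (miR-146a-5p from -0.65 to -0.51, and -0.56, -0.59 and -0.58 under the first 3, limma adjusted p 0.197, 0.0515 and 0.0505). The count was also 0 with an exact rank-sum test, which cannot call a single entry on its own with so few hearts. Entries excluding 1.2-fold fell to 22 with totals. With intervals at 95% over all entries, 0 excluded 1.2-fold and 90 excluded 1.5-fold (26, 37, 27 and 0 from the highest class down to 10 to 100 reads), and 21 of the 10 to 100 class excluded 2-fold. Distal Dlk1-Dio3 intervals below 0 were 3 with totals and 4 to 14 leaving out 1 heart, proximal ones 3 and 2 to 5; these counts were added after seeing the data. Some differences changed sign: miR-155-5p (0.0298 with totals, 0.0182 with median ratios, 0.0049 with identical entries once), miR-133a-3p (0.0249 and 0.0133 with those scalings), miR-378a-3p (0.0018 with totals), miR-23b-5p (-0.23 in the main fit, 0.14 with voom) and miR-93-3p (-0.17 in the main fit, 0.0040 with pseudocount 5, 0.0264 with voom). Leaving out 1 heart, signs changed for miR-155-5p (-0.0406 to 0.0497), miR-21a-5p (-0.16 to 0.0277), miR-30c-5p (-0.0567 to 0.0855), miR-133a-3p (-0.0654 to 0.0402), miR-143-3p (-0.12 to 0.0076), miR-451a (-0.18 to 0.26), miR-378a-3p (-0.0516 to 0.0010), miR-149-3p (-0.12 to 0.62), miR-210-5p (-0.37 to 0.67), miR-1a-2-5p (-0.88 to 0.0423), miR-23b-5p (-0.55 to 0.45) and miR-93-3p (-0.33 to 0.42). The cause was not tested. No paired analysis was possible because each animal number occurs once. The median interval was widest under 100 reads, where no other depth was tried. The widest single interval, with a half-width of 2.31, was that of a part of the mir-6236 precursor, between 100 and 1000 reads.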
